A study of Mus musculus with 3 samples.

Results

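The small leucine-rich proteoglycans are secreted matrix proteins built on a core of leucine-rich repeats, most of which carry chondroitin, dermatan or keratan sulphate chains. The data were searched for 10 genes of the family by symbol: Aspn (asporin), Dcn (decorin), Bgn (biglycan), Fmod (fibromodulin), Lum (lumican), Omd (osteomodulin), Prelp (prolargin), Ogn (osteoglycin or mimecan), Epyc (epiphycan) and Chadl (chondroadherin-like). All 10 were found among the 32285 genes counted, and all 10 passed the filter on low counts in every comparison made on the deposited counts. Several members bind collagen fibrils and set their diameter and spacing, decorin and biglycan also bind growth factors such as TGF-β, and the family is prominent in tendon, cartilage and bone matrix.

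The cells were bone-lining cells (BLCs) of wild-type mice, taken from collagenase-digested femora, tibiae and iliac bones after the marrow had been flushed out. They were sorted as Alcam+ and Sca-1- cells that lacked CD45, Ter119 and CD31, and 3 samples of this 1 group were sequenced as 10x 3′ single-cell libraries, named replicates 1, 2 and 3 here. No age, strain background, treatment or animal number is given in the labels. The study's methods call the samples independent and name C57BL/6 mice and an age range for the mice used, but not the animals behind each sample. The p-values measure how differences between kinds of cells vary over these 3 samples, and part of that spread may be technical. With 1 sorted group and no other group, the comparisons are between kinds of cells within the sort.

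After filtering, 2476, 6363 and 9393 cells were kept in replicates 1, 2 and 3, with medians of 5614, 9704 and 5814 unique molecular identifiers (UMIs) per cell. Barcodes shared between libraries were few, at 5, 9 and 28 for the 3 pairs. Cells were assigned to kinds by lists of lineage markers that held no member of the family, and a cell was called "like" a lineage when at least 3 of its markers and a minimum share of its UMIs came from that list. The chondrocyte-like gate (Acan, Col2a1, Col9a1 and others) held 83, 4687 and 6782 cells, the osteoblast-like gate (Bglap, Dmp1, Phex and others) 31, 222 and 301, the tendon-like gate (Scx, Mkx, Tnmd and others) 62, 52 and 54, and the fibroblast-like gate (Pi16, Clec3b, Dpt and others) 33, 33 and 34. The gate for Cxcl12-abundant reticular cells (CAR-like: Cxcl12, Lepr, Adipoq and others) held 580, 78 and 101 cells. Replicate 1 stood apart, with 3.35% chondrocyte-like and 23.4% CAR-like cells, against 73.7% and 72.2% chondrocyte-like and 1.23% and 1.08% CAR-like cells in replicates 2 and 3. Despite the sort against CD45 and Ter119, 117, 120 and 220 cells were haematopoietic and 86, 35 and 52 erythroid by their markers. Another 1350, 989 and 1704 cells passed no gate. The labels name the tissue as bone marrow, while most cells of replicates 2 and 3 carried cartilage markers. The blood cells should lack the family, so their counts give the background from free RNA.

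Members of the family lie in clusters in the mouse genome (GRCm38). On chromosome 13 Aspn (49544443 to 49567565), Omd (49582462 to 49592822) and Ogn (49608046 to 49624501) follow each other on the plus strand with gaps of 14.9 and 15.22 kb. On chromosome 10 Dcn (97479609 to 97518143), Lum (97565128 to 97572703) and Epyc (97644068 to 97682454) are also on the plus strand, with Kera between Lum and Epyc. Fmod (134037254 to 134048277) and Prelp (133910304 to 133921414, minus strand) lie 115.8 kb apart on chromosome 1, Bgn is on chromosome X (73483602 to 73495933) and Chadl on chromosome 15 (81678296 to 81697287, minus strand). The 3 neighbours on chromosome 13 differed in where they were highest, as described in the next paragraphs: Aspn and Ogn in tendon-like cells, Omd in chondrocyte-like cells. The 250 bases before their starts in the RefSeq table are therefore shown, with those of Epyc, which was highest in growth plate cells. The sequences are RefSeq's for GRCm38.p6, plus strand, 5′ to 3′, and capitals mark CANNTG, the letters of the E-box that basic helix-loop-helix factors such as Scleraxis bind.
Aspn: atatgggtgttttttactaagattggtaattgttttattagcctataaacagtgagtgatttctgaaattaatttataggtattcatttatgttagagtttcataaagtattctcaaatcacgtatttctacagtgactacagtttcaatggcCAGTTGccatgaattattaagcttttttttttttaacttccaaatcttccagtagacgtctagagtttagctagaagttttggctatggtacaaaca
Omd: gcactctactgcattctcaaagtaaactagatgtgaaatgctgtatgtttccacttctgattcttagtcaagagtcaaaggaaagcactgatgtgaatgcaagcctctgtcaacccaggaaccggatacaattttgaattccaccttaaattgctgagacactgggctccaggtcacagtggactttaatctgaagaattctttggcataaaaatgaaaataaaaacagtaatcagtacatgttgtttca
Ogn: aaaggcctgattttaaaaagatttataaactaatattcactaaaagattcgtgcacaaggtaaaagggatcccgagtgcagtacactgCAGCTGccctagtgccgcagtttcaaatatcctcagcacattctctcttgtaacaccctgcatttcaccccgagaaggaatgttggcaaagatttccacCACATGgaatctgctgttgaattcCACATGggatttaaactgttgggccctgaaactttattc
Epyc: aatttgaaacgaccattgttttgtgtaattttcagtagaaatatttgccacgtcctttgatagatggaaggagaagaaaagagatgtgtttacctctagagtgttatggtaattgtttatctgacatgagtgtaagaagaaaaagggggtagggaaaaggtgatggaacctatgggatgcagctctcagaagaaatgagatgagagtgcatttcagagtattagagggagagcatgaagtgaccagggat
The windows are chr13:49544193-49544442 for Aspn, chr13:49582212-49582461 for Omd, chr13:49607765-49608014 for Ogn and chr10:97643818-97644067 for Epyc. The RefSeq start of Ogn lies before the start of the gene given above, which is from another annotation (GENCODE). CANNTG occurred 1 time before Aspn, 3 times before Ogn, and not at all before Omd or this start of Epyc. It is a common string, present in 66.2% of 32851 windows of this length. TATAAA, on either strand, occurred 2 times before Aspn and 2 times before Ogn, against at least 1 match in 12.4% of all windows, and was not found before Omd or Epyc. The 2 matches before Ogn overlap in 1 stretch, tttataaa, read on both strands. TGTGGT, the core letters bound by Runx factors, occurred 1 time before Ogn, on the minus strand and overlapping 1 CANNTG match, against 14.0% of all windows. ACAAAG, letters bound by Sox factors, was found in none of the 4 windows shown and in 16.5% of all windows. A second RefSeq start of Epyc, whose window begins at 97646853, had 2 CANNTG and 1 ACAAAG match. The table of starts had entries for 8 of the 10 members, which did not include Dcn and Lum.

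Aspn, a collagen-binding member without glycosaminoglycan chains, was highest in tendon-like cells. In CPM, the counts per 1000000 UMIs of the gate in that library, it stood at 1912, 2325 and 2129.9 in the tendon-like cells of replicates 1, 2 and 3 (mean 2122 ± 207, SD, n = 3), and at 527, 227 and 434 in the fibroblast-like cells. In chondrocyte-like cells it stood at 4.41, 5.79 and 4.97. The 3 gates did not overlap, and the chondrocyte-like values lay within the 2.70 to 12.1 CPM of the haematopoietic and erythroid gates, so they are read as background. At least 1 Aspn UMI was found in 82.3%, 92.3% and 88.9% of tendon-like cells, against 5.13%, 8.33% and 4.55% of haematopoietic cells, although the haematopoietic cells were deeper (medians of 10543 to 19037 UMIs, against 4272.5 to 7417.5). By edgeR's quasi-likelihood test with Benjamini-Hochberg adjustment, tendon-like cells exceeded chondrocyte-like cells by 8.25 ± 0.73 on the log2 scale (SE, adjusted p = 1.6e-07) and fibroblast-like cells by 2.44 ± 0.57 (adjusted p = 0.014), in 3 of 3 replicates each. The second difference did not pass with DESeq2 (2.40, adjusted p = 0.28). Mural-like cells, which passed the minimum of 20 cells in replicate 1 only, had 672 CPM there. Aspn also passed the test in osteoblast-like against chondrocyte-like cells, but all 69 UMIs of the osteoblast-like gate of replicate 2 came from 1 of 222 cells, and without replicate 2 the difference was -1.12 with an adjusted p of 0.46.

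Ogn and Fmod were also highest in tendon-like cells. Ogn stood at 2582, 2031 and 1645 CPM in the tendon-like gate and at 302, 494 and 472 in the CAR-like gate. Osteoblast-like cells held 65.0, 9.65 and 5.17 CPM, close to the 2.62 to 22.3 CPM of the blood-cell gates in replicates 2 and 3. Their difference in Ogn from chondrocyte-like cells (-2.74 ± 0.50, adjusted p = 0.00029) was lost under a stricter gate (-0.60, adjusted p = 0.58), where their mean rose from 26.6 to 160 CPM, and when cells of several gates were kept (-0.42, adjusted p = 0.72). Tendon-like values were above those of every other gate in each replicate, and among the 5 gates CAR-like cells came next by mean. The tendon-like gate exceeded the chondrocyte-like gate by 3.94 ± 0.40 on the log2 scale (edgeR, adjusted p = 8.3e-07), the fibroblast-like gate by 3.16 ± 0.41 (adjusted p = 0.00012) and the CAR-like gate by 2.31 ± 0.38 (adjusted p = 0.00019). Fmod, which carries keratan sulphate and binds collagen I, stood at 3727, 3498 and 3336 CPM in tendon-like cells, at 491, 1189.8 and 1140.5 in chondrocyte-like cells and at 627, 781 and 1096 in fibroblast-like cells. It was low in osteoblast-like cells (88.6, 77.2 and 111 CPM) and CAR-like cells (15.5, 64.2 and 76.4 CPM). The tendon-like values did not overlap those of any other gate, whereas the chondrocyte-like and fibroblast-like ranges overlapped. Tendon-like cells exceeded chondrocyte-like cells in Fmod by 1.67 ± 0.32 (adjusted p = 0.00062) and fibroblast-like cells by 2.20 ± 0.33 (adjusted p = 0.00052). With the free RNA of the erythroid gate subtracted, an alternative chosen after seeing the data, both calls were lost (1.04 with an adjusted p of 0.45 and 2.19 with an adjusted p of 0.28).

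Dcn, the decorin core protein that takes 1 chondroitin or dermatan sulphate chain, was highest in fibroblast-like and tendon-like cells among the lineage gates. Its levels were 25952, 21090.2 and 12152 CPM in the fibroblast-like gate and 14913, 8340.5 and 11582 CPM in the tendon-like gate of replicates 1, 2 and 3. These ranges overlapped, and the difference of -0.76 ± 0.32 did not pass the test (adjusted p = 0.21). Chondrocyte-like cells held 6452, 2809.6 and 3736 CPM, osteoblast-like cells 1695, 2139.9 and 2174, and CAR-like cells 733, 365 and 539.9. The high chondrocyte-like value of replicate 1 went with a higher share of superficial-zone markers in that gate, whose summed level was 58464 CPM there against 16153 and 23023 in replicates 2 and 3. Fibroblast-like cells exceeded chondrocyte-like cells by 1.82 ± 0.33 (adjusted p = 0.00054), a call that was lost with free RNA subtracted (1.36, adjusted p = 0.12). Haematopoietic cells carried 17.1, 167 and 186 CPM of Dcn, and the CAR-like level was the nearest to these values. The medians were 3812 to 6490.5 UMIs per CAR-like cell and 10543 to 19037 per haematopoietic cell. Whether CAR-like Dcn exceeds free RNA in replicates 2 and 3 cannot be read from CPM and was not tested. CAR-like cells were below chondrocyte-like cells in 3 of 3 replicates, with a log2 difference of -3.36 ± 0.35 (edgeR, adjusted p = 3.6e-07). The calls of Dcn in tendon-like (1.05 ± 0.32, adjusted p = 0.016) and osteoblast-like cells (-0.93 ± 0.32, adjusted p = 0.027) against chondrocyte-like cells were not stable. The tendon-like call was lost without replicate 2 (0.99, adjusted p = 0.11), without replicate 3 (0.97, adjusted p = 0.13) and without the replicate block (adjusted p = 0.063). The osteoblast-like call was lost without replicate 1 (-0.39, adjusted p = 0.099) and without replicate 3 (-1.09, adjusted p = 0.080).

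Lum and Prelp were shared between connective tissue gates, but in different ways. Lum, a keratan sulphate member of fibrillar matrix, stood at 897, 1519.7 and 1122 CPM in tendon-like cells, 983, 1625 and 939.7 in fibroblast-like cells and 1258, 749.6 and 679.9 in osteoblast-like cells. Chondrocyte-like cells held 312, 237 and 199 CPM and CAR-like cells 116, 96.3 and 84.5. The first 3 gates overlapped, and each lay above every chondrocyte-like value. Their differences from the chondrocyte-like gate were 1.86 ± 0.26, 1.84 ± 0.26 and 1.83 ± 0.26 on the log2 scale for tendon-like, fibroblast-like and osteoblast-like cells (edgeR, adjusted p = 2.7e-05, 6.1e-05 and 2.2e-05). Prelp, a basic protein that binds collagen and heparan sulphate, stood at 975, 661 and 683 CPM in tendon-like, 275, 1167 and 933 in fibroblast-like and 609, 842 and 794 in chondrocyte-like cells. These 3 gates overlapped, and no pair of them passed the test with all replicates. Without replicate 1, Prelp was lower in tendon-like than in chondrocyte-like cells by the same test (-0.61, adjusted p = 0.0072). It was then also lower in tendon-like than in fibroblast-like cells (-0.67, adjusted p = 0.027). Prelp was lower in CAR-like cells, at 168, 173 and 237 CPM, and lower again in osteoblast-like cells, at 41.3, 44.8 and 67.2 CPM. Osteoblast-like cells were thus high in Lum and low in Prelp: against chondrocyte-like cells their log2 difference in Prelp was -3.80 ± 0.41 (adjusted p = 1.1e-06).

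Omd, Epyc and Chadl were highest in the chondrocyte-like gate. Omd, the keratan sulphate member named for its presence in bone, stood at 716, 1413 and 1739 CPM in chondrocyte-like cells, at 354, 285 and 234 in osteoblast-like cells and at 143, 474 and 662 in tendon-like cells. Haematopoietic cells held 0.899, 73.8 and 33.4 CPM, a range that reached into that of the CAR-like cells (28.4, 84.3 and 98.2 CPM). Osteoblast-like cells were shallower than haematopoietic cells (medians of 1986 to 5417 against 10543 to 19037 UMIs). Part of their Omd may therefore be free RNA, which was not tested. Every chondrocyte-like value exceeded every value of the other gates, and osteoblast-like cells were lower in 3 of 3 replicates, with a log2 difference of -2.03 ± 0.34 (edgeR, adjusted p = 0.00012). This held for the chondrocyte-like gate as a whole. Its growth plate cells, described below, held 173 and 218 CPM in replicates 2 and 3. In those replicates they lay below the osteoblast-like and tendon-like gates. Chadl, a cartilage protein that binds collagen, stood at 124, 349.8 and 343 CPM in chondrocyte-like cells and at no more than 32.9 CPM in the tendon-like, fibroblast-like, CAR-like and osteoblast-like gates. Its log2 differences from the chondrocyte-like gate ran from -4.86 (fibroblast-like) to -3.73 (tendon-like), all past the threshold. Epyc, a growth plate member, stood at 29.4, 125 and 81.3 CPM in chondrocyte-like cells. In the other 4 gates it had 0 to 8 UMIs per replicate, except for 28 UMIs in the fibroblast-like gate of replicate 2, of which 96.4% came from 3 cells. Epyc in fibroblast-like against chondrocyte-like cells therefore overlapped and did not pass the test (-1.11 ± 0.60, adjusted p = 0.19).

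Bgn, which takes chondroitin or dermatan sulphate chains, was the most evenly spread member. Its means were 1911 ± 956 CPM in fibroblast-like, 1679 ± 568 in tendon-like, 1674 ± 126 in CAR-like, 1569 ± 144 in osteoblast-like and 1394 ± 246 CPM in chondrocyte-like cells (SD, n = 3 each). All 5 ranges overlapped, and no difference between gates next to each other in this order passed the test. The haematopoietic gate held 4.05, 41.0 and 32.5 CPM. Over the 10 members and the 5 gates ordered by mean level, 18 of 40 pairs of neighbours differed at an adjusted p under 0.05, with 3 of 4 pairs for Aspn, Dcn and Fmod and none for Bgn and Epyc. When each gate's members were summed, they made up 2.95%, 2.77% and 1.86% of all UMIs in fibroblast-like cells and 2.62%, 2.07% and 2.33% in tendon-like cells. The share was 0.993%, 0.866% and 0.964% in chondrocyte-like, 0.491%, 0.507% and 0.492% in osteoblast-like and 0.292%, 0.298% and 0.332% in CAR-like cells.

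**Figure D1:**
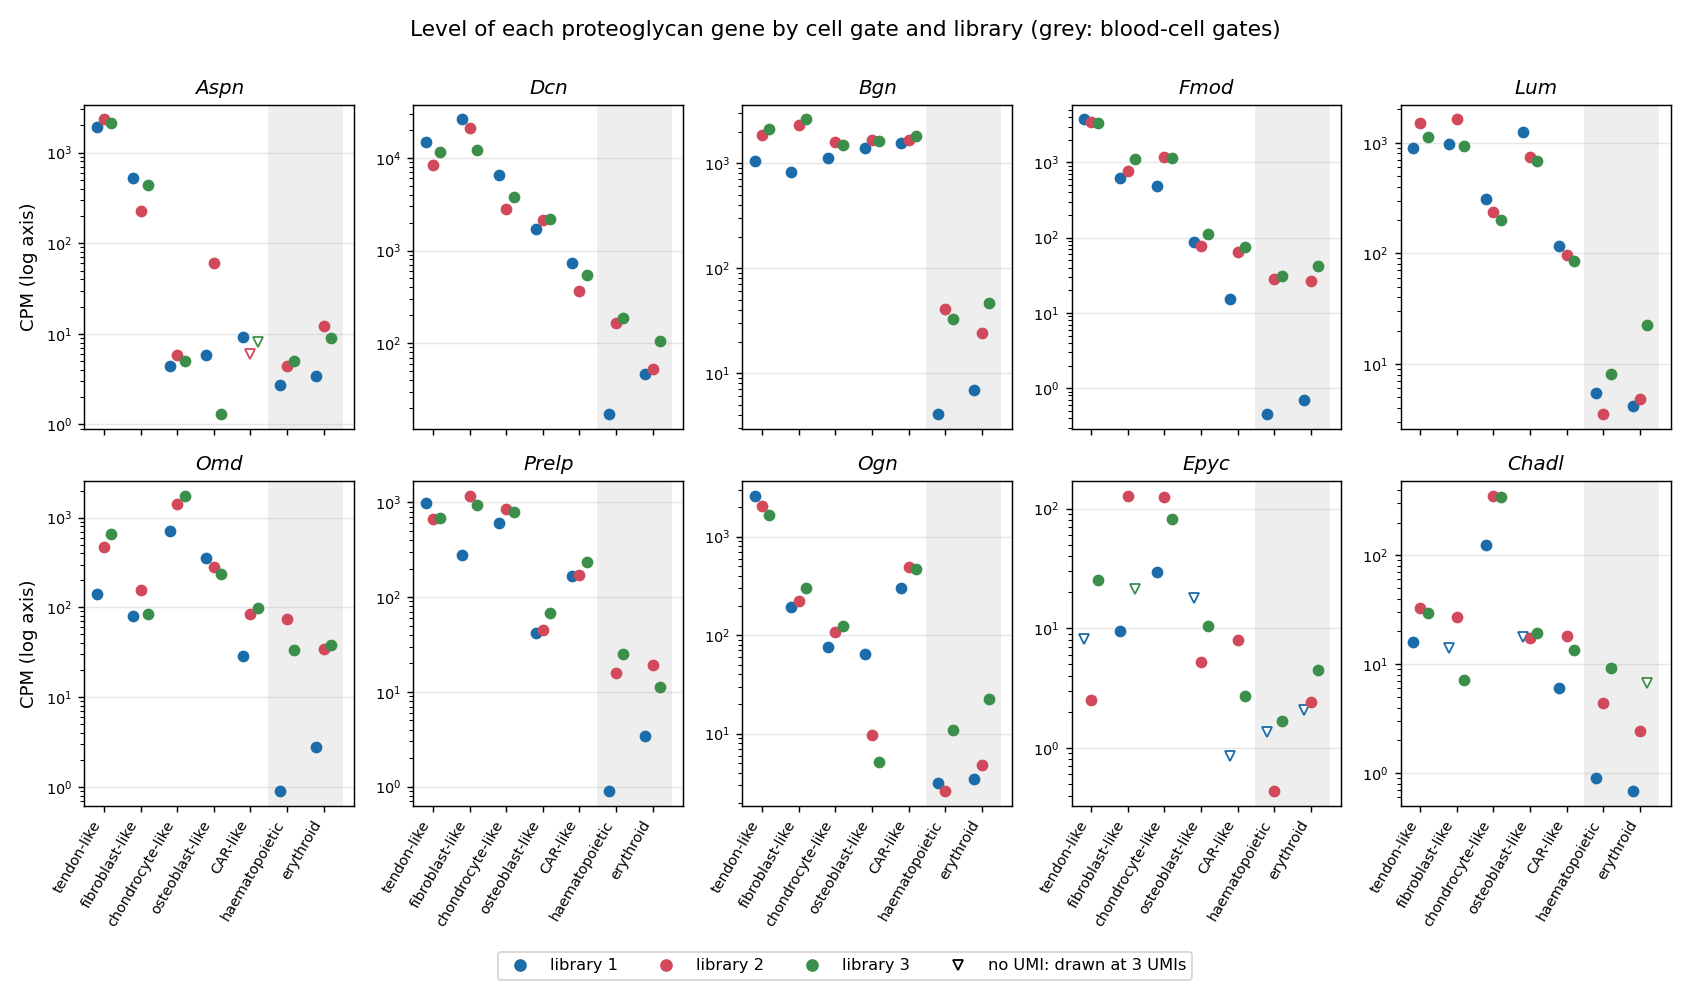
Level of each member in CPM (log axis) in 5 cell gates and, on grey, the haematopoietic and erythroid gates. Each circle is 1 library, and an open triangle marks a gate without a UMI, drawn at the level of 3 UMIs. Aspn, Fmod and Ogn peak in tendon-like cells, Omd, Epyc and Chadl in chondrocyte-like cells, and Bgn is level over the 5 gates at means of 1394 to 1911 CPM.

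Counts of members past the threshold were read against the share of all genes that passed it, since the gates differed in many genes. In tendon-like against chondrocyte-like cells 8 of 10 members passed, 5 higher (Aspn, Dcn, Fmod, Lum, Ogn) and 3 lower (Omd, Epyc, Chadl), against 32.4% of 9333 genes tested. In fibroblast-like against chondrocyte-like cells 5 passed, with Aspn, Dcn and Lum higher and Omd and Chadl lower, against 24.5% of genes. In CAR-like cells 8 passed (46.5% of genes), of which Ogn alone was higher, by 1.63 ± 0.37 (edgeR, adjusted p = 0.0016). This call was lost without replicate 2 (1.51, adjusted p = 0.066) and under a stricter gate (1.67, adjusted p = 0.060). It was also lost with cells of several gates kept (1.60, adjusted p = 0.080) and with free RNA subtracted (1.31, adjusted p = 0.25). In osteoblast-like cells 9 passed (43.0% of genes), 7 of them lower, Ogn and Dcn among them with the limits given above, and of the higher 2, Aspn rested on 1 cell. The medians over the members were 0.44, -0.21, -2.85 and -2.38 on the log2 scale in these 4 comparisons, where the medians of all genes lay between -0.08 and 0.0016. With free RNA subtracted 6, 4, 7 and 8 members passed.

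Tendon-like and fibroblast-like cells were the most alike gates in genes called, at 5.85% of genes, and 4 of 10 members passed between them, all higher in tendon-like cells: Ogn, Aspn, Fmod and Omd (1.82 ± 0.38, adjusted p = 0.0068). The marker lists of these gates were not exclusive. The tendon list summed to 595 to 1801 CPM in the fibroblast-like gate against 8271 to 10957 CPM in the tendon-like gate, and the fibroblast list to 1535 to 2594 CPM in the tendon-like gate against 3460 to 3805 CPM in its own. Their part in the result was not tested. The call of Omd was lost without replicate 2 (2.00, adjusted p = 0.14) and without replicate 3 (1.32, adjusted p = 0.13), and without replicate 1, 7 members passed in this comparison instead of 4. With free RNA subtracted 0 of the 10 passed with edgeR, 4 of them at an unadjusted p under 0.05. Between tendon-like and CAR-like cells 7 members passed (24.3% of genes) and between tendon-like and osteoblast-like cells 5 (25.1%), all higher in tendon-like cells. Fibroblast-like cells differed from CAR-like cells in 6 members (23.4% of genes), all higher, with Epyc among them on the 3 cells named above, and from osteoblast-like cells in 7 (24.2%), of which Omd was lower. CAR-like and osteoblast-like cells differed in 7 members (31.2% of genes). Ogn, by 4.37 ± 0.50, and Prelp, by 1.46 ± 0.40, were higher in CAR-like cells, whereas Dcn, Fmod, Lum, Omd and, on 1 cell, Aspn were higher in osteoblast-like cells.

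**Figure D2:**
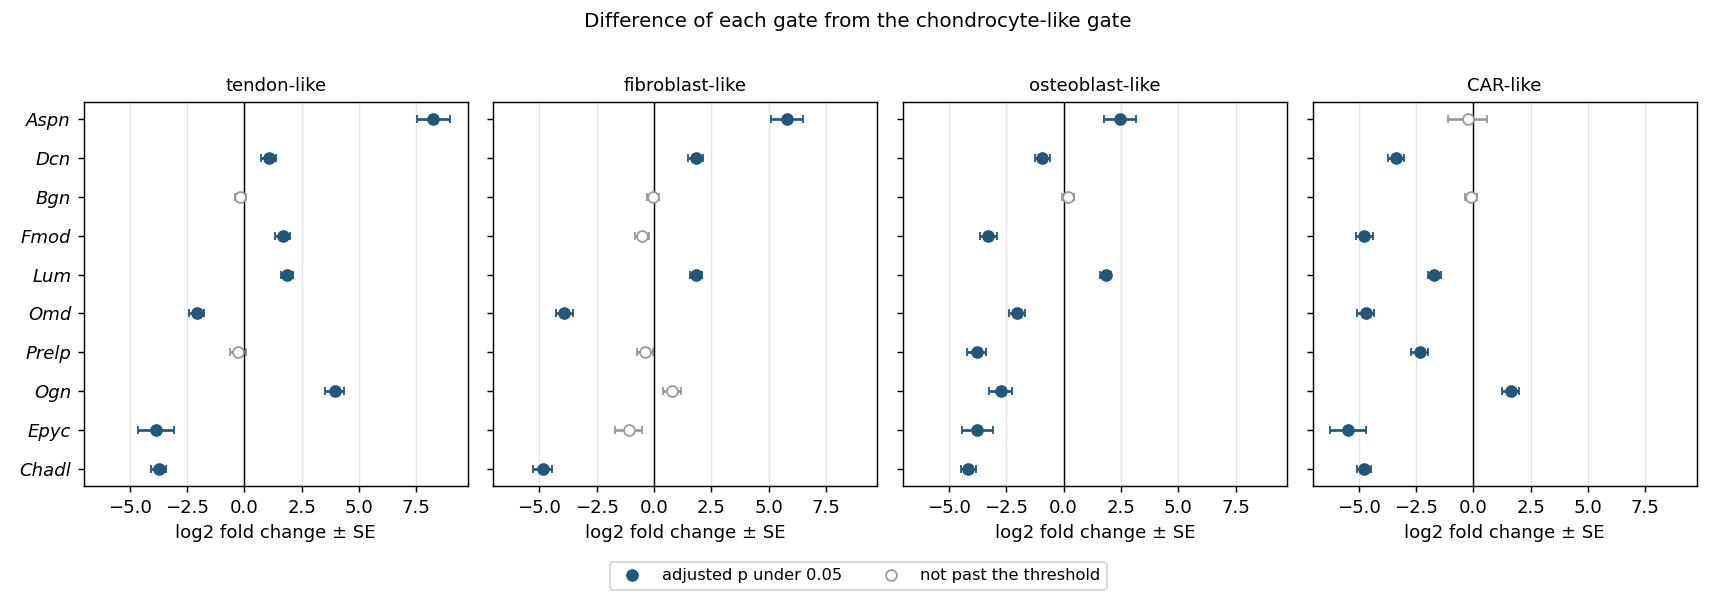
Log2 fold change with its standard error (x axis) of each member (y axis) in tendon-like, fibroblast-like, osteoblast-like and CAR-like cells against chondrocyte-like cells, from sums per gate and library over 3 libraries. Filled points passed an adjusted p of 0.05 and open points did not. Aspn reaches 8.25 in tendon-like cells, Bgn has open points in all 4 panels, and Chadl lies at -3.73 or lower in each.

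Chondrocyte-like cells were then divided by 5 further marker lists into states, since cartilage cells change their matrix from the joint surface to the growth plate. In replicates 2 and 3 the growth plate list (Matn3, Prkg2, Matn1, Ucma) marked 1655 and 1873 cells, the superficial list (Prg4, Cilp, Cilp2, Abi3bp) 494 and 792, the Wnt-active list (Lef1, Notum, Sfrp5, Nkd1) 217 and 298, and the list Wif1, Cytl1 and Myoc 128 and 235. A list written for hypertrophic cells marked 393 and 652 cells, but these carried Ibsp at 56644 and 52829 CPM with Col10a1 at 592 and 897 CPM and Ihh and Mmp13 at under 10 CPM, so they are called Ibsp-rich here. Replicate 1 had 24 superficial cells and fewer than 20 in the other states, so the state tests rest on replicates 2 and 3. Growth plate cells were the deepest, at medians of 18436 and 10233 UMIs against 4880.5 to 11410 in the other states.

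Omd had the largest rise from growth plate cells among the 10 members. It stood at 173 and 218 CPM in growth plate cells of replicates 2 and 3, at 1364 and 1058 in Wnt-active cells, at 2346 and 2512 in Wif1 Cytl1 Myoc cells, at 2024 and 1888 in superficial cells and at 5809 and 5868 in Ibsp-rich cells. In these 2 replicates no range of Omd in 1 state touched that of another. The 24 superficial cells of replicate 1 held 202 CPM (30 UMIs), within the range of the growth plate cells. Ibsp-rich cells exceeded growth plate cells by 5.21 ± 0.12 on the log2 scale (edgeR, adjusted p = 1.3e-18), a fold of 37.1, and superficial cells by 1.74 ± 0.11 (adjusted p = 5.0e-11). After each cell was thinned to 1000 UMIs, 91.3% and 91.5% of Ibsp-rich cells and 14.3% and 16.9% of growth plate cells had an Omd UMI, against 6.67% and 5.94% of haematopoietic cells. The osteoblast marker list, whose 7 genes were all detected in both states, summed to 251 and 297 CPM in Ibsp-rich cells and to 116 and 121 in growth plate cells, against 24083 to 57350 CPM in the osteoblast-like gate. The Omd level of the Ibsp-rich cells was also above the 234 to 354 CPM of the osteoblast-like gate itself.

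Dcn followed a similar order but had its highest values in the cells marked by the superficial list. Growth plate cells held 586 and 735 CPM, Wnt-active cells 2245 and 1999.9, Wif1 Cytl1 Myoc cells 5916 and 6947, Ibsp-rich cells 5995 and 6033 and superficial cells 7665 and 7558, with 10758 in the superficial cells of replicate 1. Superficial cells exceeded growth plate cells by 3.68 ± 0.10 on the log2 scale (edgeR, adjusted p = 3.9e-18) and Ibsp-rich cells did so by 3.50 ± 0.10 (adjusted p = 9.0e-18). Between superficial and Ibsp-rich cells the ranges did not overlap, but the difference of -0.18 ± 0.09 did not pass the test (adjusted p = 0.20). The mean was 58.7 and 37.4 Dcn UMIs per superficial cell and 11.1 and 7.75 per growth plate cell, against 3.19 and 2.00 per haematopoietic cell.

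Epyc and Prelp were highest in growth plate cells. Epyc stood at 223 and 182 CPM in growth plate cells, 26.2 and 23.1 in Wnt-active cells, 5.84 and 5.25 in Ibsp-rich cells, 1.59 and 1.79 in superficial cells and 3.13 and 0 in Wif1 Cytl1 Myoc cells. The last 3 states were at or near the 0.437 to 4.45 CPM of the blood-cell gates of these replicates. Epyc fell from growth plate to superficial cells with a log2 difference of -6.74 ± 0.20 (edgeR, adjusted p = 2.3e-17), to Ibsp-rich cells with -4.87 ± 0.16 and to Wnt-active cells with -3.11 ± 0.15. Prelp stood at 1105 and 1139.6 CPM in growth plate cells, 737 and 747 in superficial, 623 and 703 in Wif1 Cytl1 Myoc, 346 and 384 in Wnt-active and 329.9 and 348 in Ibsp-rich cells. Growth plate values lay above those of all other states, and the difference was -0.45 ± 0.08 for superficial, -1.42 ± 0.08 for Ibsp-rich and -1.69 ± 0.08 for Wnt-active cells (adjusted p = 4.2e-05, 1.4e-12 and 6.1e-13).

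The remaining members divided the states differently. Chadl was highest in Ibsp-rich cells, at 516 and 479 CPM against 342 and 343 in growth plate cells and 246 and 237 in superficial cells, and its difference from growth plate cells was 0.85 ± 0.08 in Ibsp-rich cells (edgeR, adjusted p = 9.5e-09). Ogn was highest in superficial cells of replicates 2 and 3, at 329 and 334 CPM against 49.1 and 57.3 in growth plate cells (2.79 ± 0.17, adjusted p = 3.8e-12), whereas the 24 superficial cells of replicate 1 held 33.7 CPM from 5 UMIs. Lum was lowest in superficial cells, at 56.6 and 71.3 CPM against 242 and 191 in growth plate and 333 and 245 in Ibsp-rich cells. Its difference was -1.59 ± 0.15 from growth plate cells and 2.32 ± 0.15 in Ibsp-rich against superficial cells (adjusted p = 4.4e-09 and 1.1e-10). In replicates 2 and 3 superficial cells were thus highest in Ogn and lowest in Lum, but Wif1 Cytl1 Myoc cells came near in Ogn, at 144 to 290 CPM. Superficial cells were tested against growth plate and Ibsp-rich cells only. Bgn stood at 1750.4 and 1737 CPM in growth plate, 1855 and 1746 in Ibsp-rich, 1155 and 1067 in superficial and 1025 and 994 in Wnt-active cells. Its differences were small, at -0.50 ± 0.07 for superficial and -0.86 ± 0.08 for Wnt-active cells (adjusted p = 4.8e-06 and 6.0e-09). Fmod varied least, from 965 to 1429.6 CPM in replicates 2 and 3, and did not pass the test in superficial or Wnt-active against growth plate cells. The 24 superficial cells of replicate 1 lay below these values, at 202 CPM of Fmod and 431 CPM of Bgn. Aspn stayed at 1.42 to 13.7 CPM in all states of replicates 2 and 3, against 4.37 to 12.1 CPM in the blood-cell gates of the same replicates, so nothing is read from its differences between states although they passed the test against growth plate cells.

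**Figure D3:**
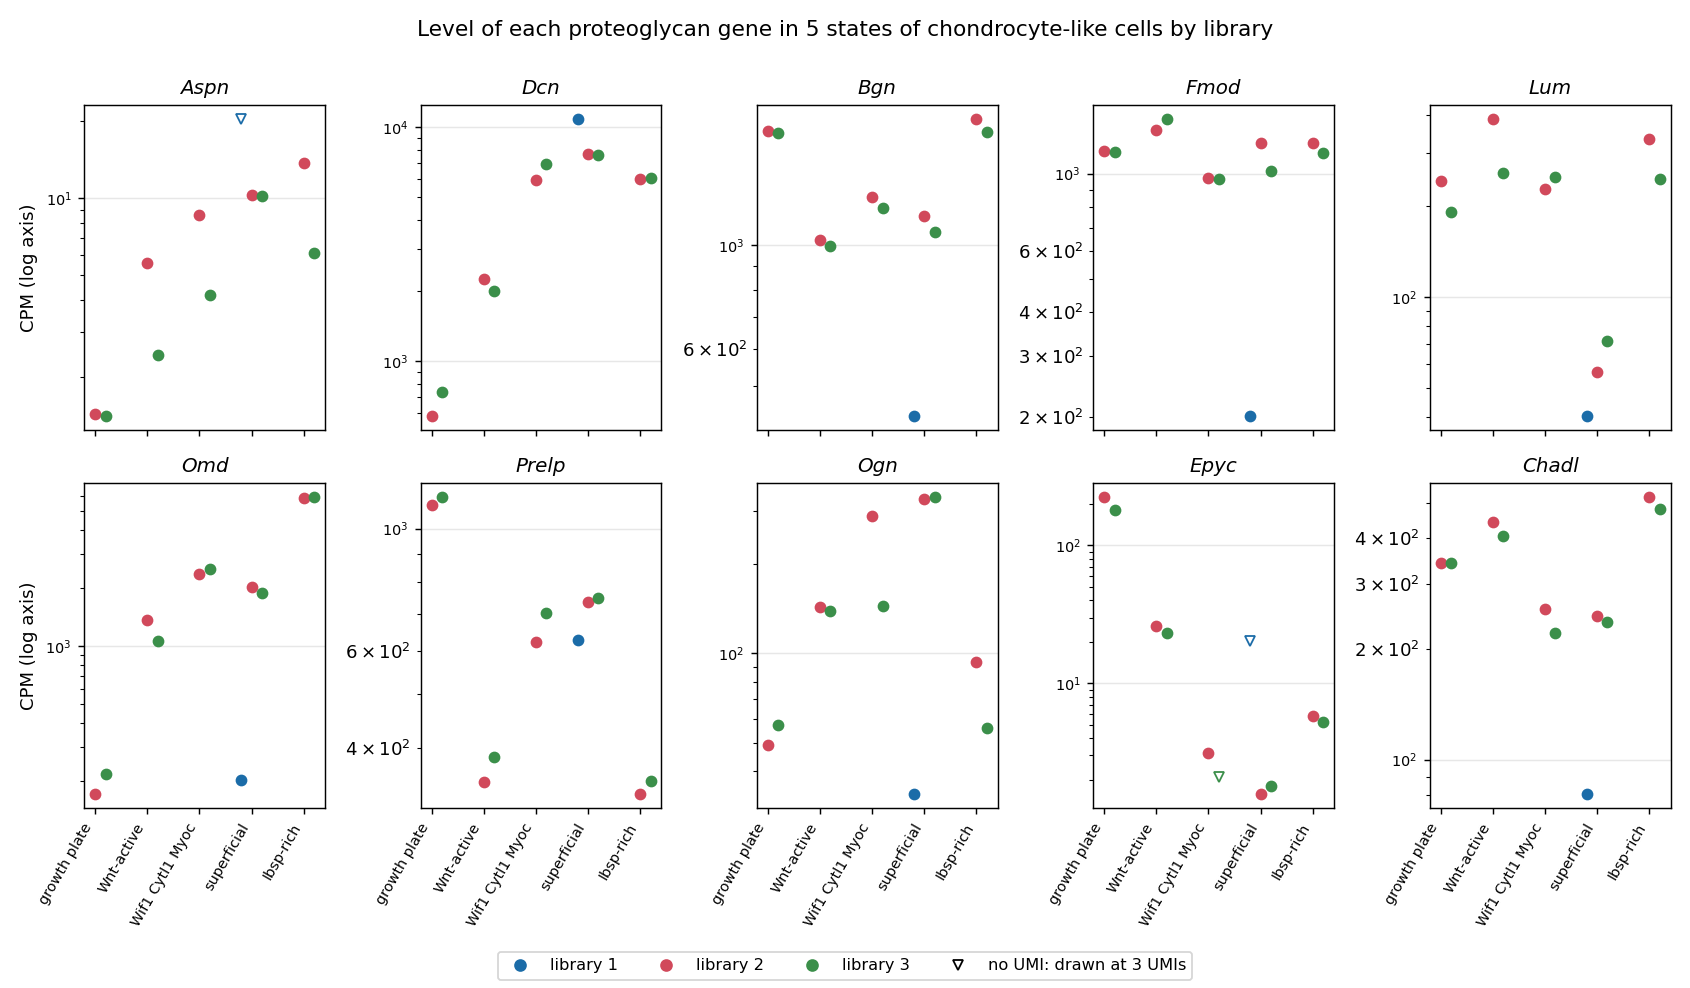
Level of each member in CPM (log axis) in 5 states of chondrocyte-like cells, 1 circle per library. Library 1 appears only in the superficial state with 24 cells, and an open triangle marks a state without a UMI, drawn at the level of 3 UMIs. Omd climbs from 173 and 218 CPM in growth plate cells to 5809 and 5868 in Ibsp-rich cells, and Epyc falls from 223 and 182 to under 10 CPM.

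By counts, 9 of 10 members passed in superficial against growth plate cells, against 55.3% of 13032 genes tested. Of these, 4 were higher (Omd, Dcn, Ogn and Aspn) and 5 lower. In Ibsp-rich against growth plate cells 10 passed (53.3% of genes), 8 higher and 2 lower. The differences of Bgn (0.36) and Fmod (0.34) among them depended on the scaling: without scaling factors, which moved the median of all genes by -0.31, they were 0.05 and 0.03. Without the replicate block Bgn, Fmod and Ogn were not called there (adjusted p = 0.31, 0.50 and 0.073). In Wnt-active cells 9 passed (42.5% of genes), with Omd (2.56 ± 0.11), Dcn (1.62 ± 0.09) and Ogn (1.33 ± 0.19) the largest above background among 6 higher. In Ibsp-rich against superficial cells 8 passed, 6 higher and 2 lower, against 16.8% of genes. The higher were Lum, Epyc, Omd, Chadl, Bgn and Fmod, and the lower were Prelp (-0.97 ± 0.08) and Ogn (-2.01 ± 0.18).

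**Figure D4:**
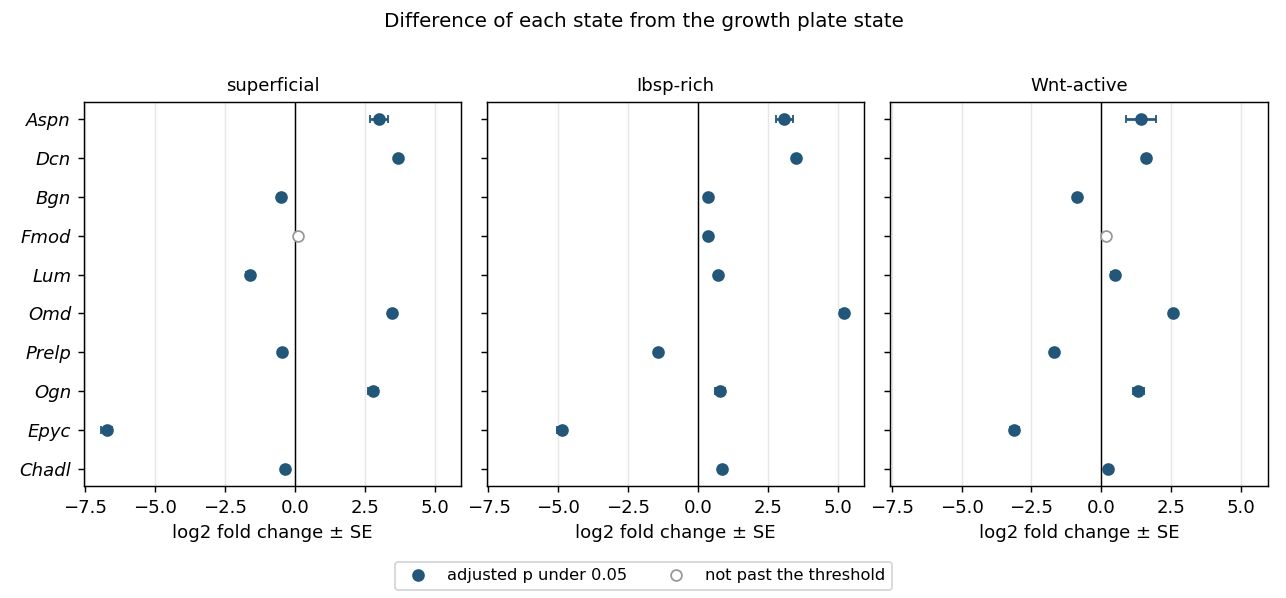
Log2 fold change with its standard error (x axis) of each member (y axis) in superficial, Ibsp-rich and Wnt-active cells against growth plate cells. Filled points passed an adjusted p of 0.05 and open points did not. Omd and Dcn lie to the right in all 3 panels, by up to 5.21 and 3.68, and Epyc and Prelp to the left.

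Cells rich in Prg4 and Cilp that passed no lineage gate were taken as a population of their own after the data had been seen, with 418, 415 and 770 cells. Prg4 encodes lubricin, the lubricant of the joint surface. Dcn reached 17024, 22100.5 and 21258 CPM in these cells, or 114, 164 and 102 UMIs per cell. Every value was above those of the tendon-like gate in all replicates, by 1.30 ± 0.34 on the log2 scale (edgeR, adjusted p = 0.0059), and above the chondrocyte-like gate by 2.32 ± 0.35 (adjusted p = 5.1e-05). High Dcn was not particular to these cells, since their values lay within the 12152 to 25952 CPM of the fibroblast-like gate. The members together made up 1.91%, 2.60% and 2.52% of their UMIs. Against chondrocyte-like cells 5 members passed (22.4% of 10538 genes tested), with Dcn and Aspn higher and Omd, Epyc and Chadl lower. Against tendon-like cells 5 passed as well (26.2% of genes), with Dcn higher and Ogn, Lum, Fmod and Aspn lower. Aspn stood at 39.3, 30.9 and 31.1 CPM, above the blood-cell gates but below the tendon-like gate (log2 difference -5.52 ± 0.57, adjusted p = 2.3e-07). Lum was at 239, 119 and 143 CPM, above the superficial cells inside the gate in each replicate (40.4, 56.6 and 71.3 CPM), and its difference from chondrocyte-like cells did not pass the test (-0.52 ± 0.28, adjusted p = 0.20).

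Among 9 other genes of the family, Kera (keratocan), which lies between Lum and Epyc, was nearly limited to tendon-like cells. It stood there at 86.2, 360 and 312 CPM, with 32, 142 and 74 UMIs, whereas fibroblast-like cells held 4, 1 and 0 UMIs and the chondrocyte-like gate 0, 0 and 3 UMIs. Among the 5 gates the UMIs of Kera lay almost wholly in the tendon-like gate, whose marker list held Mfap4 and Chodl beside Tnmd. The paper reports Kera as enriched in the same cluster of these cells as Mfap4, Tnmd and Chodl. No test of Kera between gates is therefore given. Chad (chondroadherin) stood at 6255, 4103 and 5154 CPM in chondrocyte-like cells and was higher in Ibsp-rich cells, at 10439.8 and 10751 CPM, than in growth plate cells, at 2109.6 and 2593. It was as high in Wif1 Cytl1 Myoc cells, at 10577 to 11279 CPM. Ecm2, the gene before Aspn on chromosome 13 at a gap of 11.65 kb, stood at 39.2 and 56.8 CPM in growth plate and 556 and 534 in Ibsp-rich cells, a difference of 3.83 ± 0.13 (edgeR, adjusted p = 1.4e-16). Ecm2 was intermediate in superficial cells, at 383 and 401 CPM, and highest in Wif1 Cytl1 Myoc cells, at 731 to 758 CPM, whereas Omd was highest in Ibsp-rich cells. Podn (podocan) stood at 97.1, 82.3 and 87.3 CPM in CAR-like cells and at 61.7, 90.8 and 78.3 in fibroblast-like cells, and at no more than 1.52 CPM in chondrocyte-like cells.

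The chains of these core proteins are made by enzymes that link, extend and sulphate them. Of 29 chain genes listed, 24 were tested between gates. In tendon-like against chondrocyte-like cells 3 were higher and 13 lower, in fibroblast-like cells 1 and 10, in CAR-like cells 5 and 11, and in osteoblast-like cells 6 and 14, beside shares of all genes called of 32.4%, 24.5%, 46.5% and 43.0%. Xylt1, which starts the linker on the core protein, stood at 1115, 1209 and 1344 CPM in chondrocyte-like cells and at 83.5, 38.0 and 38.0 in tendon-like cells, with a log2 difference of -4.86 ± 0.35 (edgeR, adjusted p = 1.7e-08). Csgalnact1, which starts the chondroitin chain, stood at 222, 198 and 197 CPM in chondrocyte-like cells and at 5.39, 15.2 and 8.44 in tendon-like cells (-4.80 ± 0.46, adjusted p = 3.7e-07). Ust, another of the chain genes, went the other way, at 294, 258 and 236 CPM in tendon-like and 35.3, 84.3 and 94.3 in chondrocyte-like cells. These levels are not set against Aspn or Fmod, since Aspn has no glycosaminoglycan chains and Fmod carries keratan sulphate. Between states 27 chain genes were tested, with 9 higher and 11 lower in superficial and 7 and 11 in Ibsp-rich against growth plate cells, beside 55.3% and 53.3% of all genes called. Chst3, a chondroitin 6-O-sulphotransferase, stood at 4.72 and 5.82 CPM in growth plate cells, 77.5 and 85.8 in superficial and 60.2 and 79.5 in Ibsp-rich cells (4.10 ± 0.12 and 4.04 ± 0.12, adjusted p = 2.1e-17 and 3.0e-17). Csgalnact1 was lower in Ibsp-rich cells, at 44.5 and 43.8 CPM against 238 and 265 in growth plate cells. Chst1, a keratan sulphotransferase, was higher in Ibsp-rich than in growth plate cells by 2.92 ± 0.14 (adjusted p = 5.5e-14).

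For each member the genes with the most similar levels were sought over 16 sums of gate and library, by Pearson's r of log2(CPM + 1) among 16466 genes. These sums share libraries and gates, so r is a description. Chadl was most like Ucma (r = 0.94), Matn3 (0.93) and Col9a3 (0.92), cartilage genes that belong to the marker lists of the gates and states. Aspn was most like Meox2 (0.94), Anpep (0.91) and Cpxm2 (0.91), Fmod like Edil3 (0.95), Ifi30 (0.94) and Nucb2 (0.93), and Dcn like Myoc (0.93), Rab7b and Jam2 (0.91 each). Prelp was most like Ecm2 (0.94), and Epyc like Ccn6 (0.86). Between members, r was 0.87 for Dcn and Lum, 0.82 for Dcn and Fmod, and -0.26 for Aspn and Chadl.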

How the data were processed

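Single-cell RNA of sorted bone-lining cells was measured in 3 samples of 1 group, with 10x Genomics 3′ v3.1 chemistry. Per the labels and the submitters' processing notes, reads were aligned to mm10 and UMIs counted with Cell Ranger 7.1.0, and the authors deposited filtered matrices of raw UMI counts per gene and cell, with no normalisation. The libraries held 2606, 7172 and 10529 barcodes and 20985636, 79905165 and 69890252 UMIs.

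From these counts, barcodes with under 200 genes, or with over 20% of their UMIs in mitochondrial genes, were dropped. Scrublet's automatic threshold marked 1.66%, 0.0149% and 0% of cells, so it was not used and the top-scoring cells were removed at 0.8% per 1000 cells (51, 362 and 837 cells). A cell entered a lineage gate with at least 3 markers of its list (2 for a state) and a summed share of at least 5 to 100 UMIs per 10000 by lineage (10 to 300 for states), and cells passing several gates were left out. The cuts were set after the spread of marker shares had been seen, without reading the members. The members, lists and tests were chosen with earlier results of these data known. All 10 members are named, other family genes where called or at 50 CPM or more, and at most 4 chain genes a comparison.

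Counts were summed per gate and library for at least 20 cells and fitted with edgeR 4.0.16 in R 4.3.3 (quasi-likelihood test, TMM scaling, library as a block, since all gates of a library come from the same sorted sample), with Benjamini-Hochberg adjustment over all genes that passed filterByExpr. The fit of lineages held 16 sums and 9333 genes, that of states 11 sums and 13032 genes. On simulated counts, 77% of genes changed by a log2 fold of 2 and 15% of those changed by 1 were recovered in tendon-like against chondrocyte-like sums, and 67% and 2% in Ibsp-rich against growth plate sums. These counts were drawn with 1 fixed spread for all genes, not matched to the data. The shares therefore do not give the power of the real comparisons, in which small changes could be missed. Levels are CPM, and since 3′ counts do not allow levels to be ordered between genes, each gene was compared with itself. DESeq2 1.42.0 served as an alternative.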

Additional observations from a re-analysis of the deposited data

How the results depend on the processing

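Of 1117 alternative values of the members' log2 fold changes, 1050 kept their direction and side of the threshold, 47 lost the call, 16 gained it and 4 turned direction, and 27 of the kept values changed sign with no call in either. The 4 were Aspn in osteoblast-like against chondrocyte-like cells without replicate 2 (-1.12, and 3.10 without replicate 3), Prelp in tendon-like against fibroblast-like cells without replicate 1 (-0.67, and 0.70 without replicate 2), and, under a stricter gate, Chadl in superficial (0.22) and Aspn in Wnt-active (-5.34) against growth plate cells. In tendon-like against fibroblast-like cells the 4 members called became 3 to 7 when 1 replicate was left out. With the free RNA of the erythroid gate subtracted, an alternative chosen after seeing the data, 0 were called by edgeR there (4 at an unadjusted p under 0.05, 84 of 5214 genes called), against 3 by DESeq2 on the counts as deposited, and 6, 4, 7 and 8 instead of 8, 5, 8 and 9 were called in tendon-like, fibroblast-like, CAR-like and osteoblast-like against chondrocyte-like cells and 4 instead of 9 in Wnt-active against growth plate cells. The cause was not tested. The calls of Dcn against chondrocyte-like cells were lost for tendon-like cells without the replicate block and without replicate 2 or 3, and for osteoblast-like cells without replicate 1 or 3, under the stricter gate, with doublets kept and with at least 50 cells. Ogn in osteoblast-like against chondrocyte-like cells lost its call under the stricter gate (-0.60) and with cells of several gates kept (-0.42). Ogn in CAR-like against chondrocyte-like cells lost its call under these same settings, without replicate 2 and with free RNA subtracted. Without the replicate block 7, 5, 8 and 9 members were called in tendon-like, fibroblast-like, CAR-like and osteoblast-like against chondrocyte-like cells, 4 in tendon-like against fibroblast-like cells, and 9, 7 and 6 in superficial, Ibsp-rich and Wnt-active against growth plate cells, so no count moved by over 1.5 times. Over all genes, DESeq2 called 4464, 4165 and 3274 in these 3 state comparisons, where edgeR called 7204, 6943 and 5536. Without scaling factors the median of all genes moved by up to 0.48 and no called member turned direction. Leaving out replicate 2 or 3 left no residual degrees of freedom for the states, and the minimum of 50 cells removed the fibroblast-like gate. Between 12 and 26 of the 40 neighbouring pairs of gates differed under the alternatives (26 without replicate 1), and 14 of 25 with at least 50 cells. Free RNA limits what can be said of members near the levels of the blood-cell gates.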
